A study of Mus musculus with 6 samples.

Results

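Lag3 and 9 further immune checkpoint genes were examined in the frontal cortex of GFAP-IL6 and wild-type (WT) mice. The genes were taken by symbol from the deposited count table, and 10 of its 33000 genes were members. They comprised 5 receptors (Lag3, Havcr2, Cd200r1, Sirpa and Cd33) and 5 ligands (Cd274, Cd80, Cd86, Cd200 and Cd47). The members were selected on readouts of the same contrast, the expression of GFAP-IL6 against WT mice, so that for them this difference is described and not tested. TruSeq mRNA libraries came from 3 mice homozygous for GFAP-IL6, a transgene that produces the cytokine IL6 from the promoter of the astrocyte gene Gfap, and from 3 WT C57BL/6 mice. The paper names a strain only for the WT mice. Both groups were 3 months old, and the labels list no treatment. The libraries held 11591066 to 16877001 counts in WT and 7559524 to 11072008 in GFAP-IL6, so each GFAP-IL6 library was shallower than each WT library.

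Immune checkpoints are pairs of surface proteins through which one cell restrains the activity of another. On lymphocytes, LAG3 and PD-1 dampen the response to antigen, and CD80 and CD86 on antigen-presenting cells engage the stimulating receptor CD28 or the inhibiting receptor CTLA4. In the brain, several of these pairs act between neurons and microglia, the resident macrophages. CD200 and CD47 on neurons bind CD200R1 and SIRPα on microglia, and the sialic acid receptor CD33 restrains phagocytosis.

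To show the regulatory sequence next to the genes it belongs to, the 250 bases before the RefSeq transcription start (GRCm38.p6) were searched for 3 motifs on both strands. RefSeq promoters were found for 6 of the 10 members (Havcr2, Cd33, Cd274, Cd80, Cd200 and Cd47), and Lag3, Cd200r1, Sirpa and Cd86 were without an entry. The STAT motif TTCNNNGAA, the site type of the factors activated by IL6, occurred in none of the 6, against 7.02% of 32851 promoters. The IRF motif, GAAA repeated after a gap of 2 bases, likewise occurred in none, against 2.98% of all promoters. The core GAGGAA, bound by the myeloid factor PU.1, occurred once each in Havcr2 and Cd33 and was not found in the other 4, against 23.3% of all promoters. Neither match overlapped another motif, and a match is a description of the letters only. For Cd33, Cd80 and Cd47 the searched bases lie inside the gene span given below, so any start further upstream was not searched. The promoters of Cd33 (chr7:43533172-43533421, minus strand) and Havcr2 (chr11:46454681-46454930, plus strand) are shown as the ones with a match, and that of Cd200 (chr16:45409054-45409303, minus strand) as one of a neuronal ligand without any. Capitals mark GAGGAA, which began 226 bases before the start in Cd33 and 8 bases before it in Havcr2.
Cd33: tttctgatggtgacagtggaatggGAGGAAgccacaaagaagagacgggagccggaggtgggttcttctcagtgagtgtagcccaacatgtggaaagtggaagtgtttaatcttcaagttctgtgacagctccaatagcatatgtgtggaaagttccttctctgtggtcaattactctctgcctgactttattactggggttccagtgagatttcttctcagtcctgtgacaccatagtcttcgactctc
Havcr2: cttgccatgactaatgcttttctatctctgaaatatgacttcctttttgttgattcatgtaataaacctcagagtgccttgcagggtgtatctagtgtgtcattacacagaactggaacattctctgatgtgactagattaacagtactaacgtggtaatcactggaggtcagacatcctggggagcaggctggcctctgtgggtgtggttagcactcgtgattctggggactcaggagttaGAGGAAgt
Cd200: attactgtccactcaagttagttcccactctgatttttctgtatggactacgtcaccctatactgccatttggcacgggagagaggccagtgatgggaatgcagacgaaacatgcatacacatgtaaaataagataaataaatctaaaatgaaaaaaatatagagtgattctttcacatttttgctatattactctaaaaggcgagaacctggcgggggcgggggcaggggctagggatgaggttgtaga

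As a check of labels and tissue, reads of Il6 numbered 0, 2 and 0 in the WT libraries against 12, 10 and 24 in the GFAP-IL6 libraries. All 9 cortical neuron markers were detected, with a summed level of 7698 to 8168 CPM (counts scaled by TMM to a common library total) in WT and 6724 to 7707 CPM in GFAP-IL6. None of them was called by edgeR, and 1 had an unadjusted p under 0.05. Here and in what follows, a gene is called at an adjusted p under 0.05 by the quasi-likelihood test of edgeR over 15341 genes.

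Of the 10 members, Lag3, Cd33 and Cd86 were higher in GFAP-IL6 mice, by about 4.04-fold, 2.08-fold and 2.17-fold. The neuronal ligands Cd200 and Cd47 and the receptor Sirpa had log2 fold changes between -0.10 and 0.07. Havcr2 and Cd274 lay between, and Cd200r1 and Cd80 were near the limit of detection. By count, 9 members passed the filter on low counts and 3 of them were called, all higher, where 2.65% of all genes tested were called higher and 2.86% in either direction. The same 3 had a log2 fold change over 1, against 1.36% of all genes. Every GFAP-IL6 library was above every WT library for 5 of the 9, against 13.8% of all genes, and 26.5% of all genes had no overlap in either direction. As the members were chosen with this contrast known, nothing is read from these counts. The median log2 fold change was 0.48 over the 5 receptors and 0.39 over the 4 ligands tested, and -0.0038 over all genes tested.

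**Figure D1:**
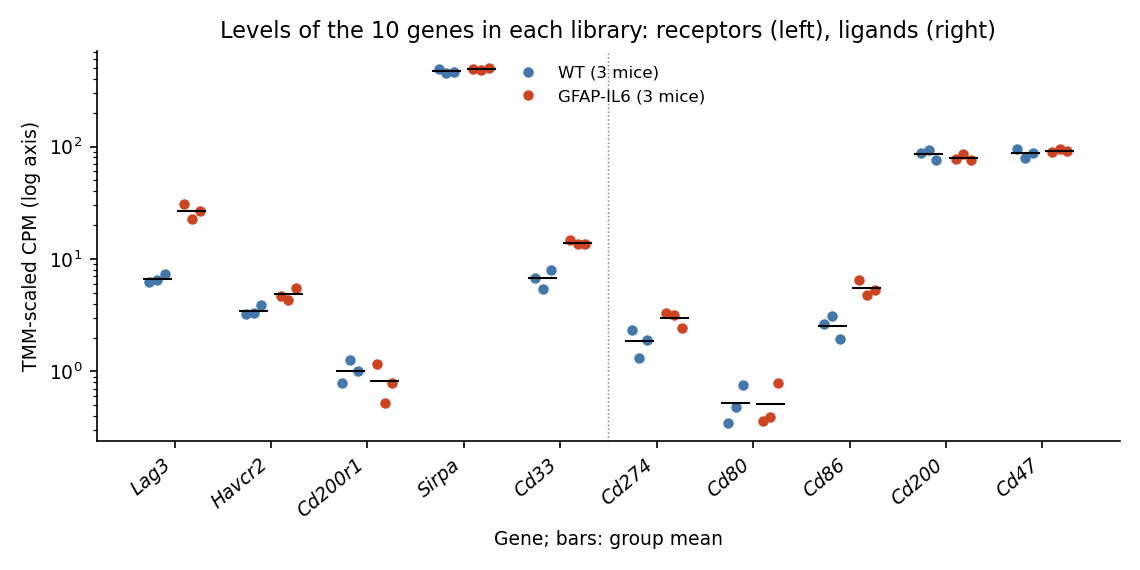
TMM-scaled CPM on a log axis for the 10 genes in each of 6 libraries (blue, 3 WT mice; red, 3 GFAP-IL6 mice; bars, group means), with receptors left of the dotted line and ligands right of it. The Lag3 points of GFAP-IL6 mice (22.8 to 30.9 CPM) sit well above those of WT mice (6.18 to 7.35 CPM), while the points of Sirpa, Cd200, Cd47, Cd200r1 and Cd80 are mixed.

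Lag3 (ENSMUSG00000030124.2, chromosome 6, 124904361 to 124911705, minus strand) encodes a CD4-like receptor that binds MHC class II. Its level was 6.18, 6.44 and 7.35 CPM in WT replicates 1, 2 and 3, and 30.9, 22.8 and 26.9 CPM in GFAP-IL6 replicates 1, 2 and 3. The lowest GFAP-IL6 library was thus more than 3 times the highest WT library. The fitted log2 fold change was 2.02 ± 0.14 (SE). These levels rested on 71, 108 and 117 reads for WT against 345, 173 and 241 reads for GFAP-IL6.

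The genes that lie next to Lag3 were not called. Ptms, which encodes the acidic protein parathymosin, lies 1975 bases upstream on the same strand. It had 354 ± 14.1 CPM in WT against 349 ± 13.6 CPM in the transgenic group (SD, n = 3 each), a log2 fold change of -0.02 ± 0.08 (SE) and an adjusted p of 0.910 by edgeR. Cd4, on the other side at a distance of 16139 bases, had 1.64 ± 0.927 CPM in WT and 1.19 ± 0.640 CPM in GFAP-IL6 (SD, n = 3 each; adjusted p of 0.562 by edgeR).

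Cd33 (ENSMUSG00000004609.9, chromosome 7, 43524216 to 43544428, minus strand) was at 6.71, 5.43 and 8.04 CPM in the WT libraries and at 14.7, 13.6 and 13.5 CPM in the GFAP-IL6 libraries. The groups were separate, and the 3 GFAP-IL6 values were close to each other. The log2 fold change was 1.06 ± 0.16 (SE).

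Havcr2 (ENSMUSG00000020399.12, chromosome 11, 46454935 to 46481255, plus strand), also known as Tim-3, encodes a receptor for galectin-9. It had 3.22, 3.28 and 3.89 CPM in WT and 4.66, 4.36 and 5.47 CPM in GFAP-IL6. The libraries did not overlap, but the gene was not called, with a log2 fold change of 0.48 ± 0.20 (SE).

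Sirpa (ENSMUSG00000037902.16, chromosome 2, 129592835 to 129632228, plus strand), encodes the receptor of CD47 found on neurons as well as on myeloid cells. It had 492, 453 and 464 CPM in WT and 493, 483 and 495 CPM in GFAP-IL6. The groups overlapped, and the log2 fold change had a 95% interval of -0.10 to 0.22.

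Cd200r1 (ENSMUSG00000022667.15, chromosome 16, 44765736 to 44794978, plus strand) was scarce, with 9, 21 and 16 reads for WT and 13, 4 and 7 reads for GFAP-IL6. At this depth its log2 fold change was poorly determined, with a 95% interval of -1.09 to 0.56. Reads shared with near-identical relatives such as Cd200r4 could be missing from its counts, which makes its level uncertain.

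Among the ligands, Cd86 (ENSMUSG00000022901.11, chromosome 16, 36603869 to 36666081, minus strand) had 2.61, 3.10 and 1.95 CPM in WT and 6.54, 4.75 and 5.25 CPM in GFAP-IL6. The groups did not overlap, and GFAP-IL6 replicate 1 was the highest, with a log2 fold change of 1.12 ± 0.23 (SE). Cd86 lost its call without WT replicate 3, GFAP-IL6 replicate 1 or GFAP-IL6 replicate 3, with log2 fold changes of 0.95, 0.97 and 1.16. Whether single mice or the smaller number of samples led to the lost calls of Cd86 was not tested. Its relative Cd80 (ENSMUSG00000075122.4, chromosome 16, 38455561 to 38496335, plus strand) failed the filter on low counts, with 4, 8 and 12 reads for WT against 4, 3 and 7 for GFAP-IL6. The means were 0.526 ± 0.207 and 0.512 ± 0.234 CPM (SD, n = 3 each), so that no difference was detectable at this depth.

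Cd274 (ENSMUSG00000016496.7, chromosome 19, 29367455 to 29388095, plus strand) encodes PD-L1, the ligand of PD-1. It had 2.35, 1.31 and 1.88 CPM in WT and 3.32, 3.17 and 2.46 CPM in GFAP-IL6. The groups were separated by a narrow margin between WT replicate 1 and GFAP-IL6 replicate 3, and the gene was not called (log2 fold change of 0.72 ± 0.28, SE). An annotated gene on the opposite strand, AC119228.1, shares 511 bases with its exons, or 14.1% of them, and its reads could not be told apart from those of Cd274 without strand.

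Cd200 (ENSMUSG00000022661.12, chromosome 16, 45382135 to 45409053, minus strand) had 87.5, 94.0 and 75.3 CPM in WT and 77.8, 86.1 and 75.6 CPM in GFAP-IL6. Cd47 (ENSMUSG00000055447.16, chromosome 16, 49800533 to 49915010, plus strand), the surface protein that signals through SIRPα against engulfment, had 94.5, 78.9 and 87.4 CPM in WT and 88.9, 94.3 and 90.6 CPM in GFAP-IL6. Both genes overlapped between groups. The 95% interval of the log2 fold change was -0.31 to 0.11 for Cd200 and -0.12 to 0.26 for Cd47.

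Levels of different genes were compared per length, as TPM (reads per gene length, scaled to the same total in each library) from the gene lengths in the table. In WT, Sirpa was first with 308 ± 21.9 TPM, followed by Cd200 with 101 ± 10.3 and Cd47 with 45.8 ± 5.45 TPM (SD, n = 3 each). Lag3 was the fourth with 9.23 ± 0.847 TPM, and its libraries overlapped those of Cd33, the fifth, with 7.27 ± 1.51 TPM (SD, n = 3 each). The remaining members had mean levels between 0.857 TPM for Cd80 and 3.53 TPM for Havcr2. In this lower range Havcr2 overlapped Cd86, and Cd200r1, Cd274 and Cd80 overlapped their neighbours. The order of the first 5 was the same in GFAP-IL6, but there Lag3 reached 39.2 ± 6.26 TPM, separate from Cd33 with 15.8 ± 0.908 TPM and below Cd47 with 50.4 ± 1.12 TPM (SD, n = 3 each). The length of Cd33 exons in the later GENCODE release M21 was 7771 bases against 2571 bases in the table, that of Cd80 was 3703 against 1701 bases and that of Cd200r1 3348 against 1892 bases. For Cd200 the lengths were 3321 against 2347 bases and for Cd86 3661 against 2539 bases. The TPM of these genes depends on this choice. So do the rank of Cd33, its overlap with Lag3 in WT, the lower ranks and the ratios.

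Receptors were then set against their ligands within each library, as ratios of TPM, and the ligand Cd86 against the ligand Cd80. Sirpa exceeded Cd47 by 6.75 ± 0.359-fold in WT and by 6.69 ± 0.282-fold in GFAP-IL6 (SD, n = 3 each). Cd200r1 amounted to 0.0147 ± 0.00313 of Cd200 in WT and to 0.0130 ± 0.00549 in GFAP-IL6 (SD, n = 3 each). Both brain pairs thus held overlapping ratios in the 2 groups, with the receptor above the ligand in the first pair and below it in the second. As Sirpa is found on neurons as well as on myeloid cells, its ratio in bulk tissue does not measure the microglial receptor alone. The log2 difference of the ratio was -0.01 for Sirpa over Cd47 (-0.04 to 0.03 when single libraries were left out) and -0.25 for Cd200r1 over Cd200, which turned to 0.09 without GFAP-IL6 replicate 2 and was -0.55 without GFAP-IL6 replicate 1. The ratio of Lag3 to the mean of the MHC class II genes H2-Aa, H2-Ab1 and H2-Eb1 was 3.24 ± 1.90 in WT against 4.31 ± 0.981 in the transgenic mice (SD, n = 3 each). Cd86 over Cd80 was 3.70 ± 1.74 in WT against 8.25 ± 3.87 in the transgenic mice (SD, n = 3 each), with wide spread from the few counts of Cd80. In both cases the libraries of the groups overlapped. The log2 differences were 0.53 and 1.18, with 0.29 to 0.98 and 0.70 to 1.56 when single libraries were left out. The lowest came without WT replicate 2 for the first and without WT replicate 3 for the second, and the highest of the first without WT replicate 3.

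Several members are known from microglia, so markers of microglia and of other cells were examined beside them. Of 10 microglia markers, 7 were called, all higher, against 2.65% of all genes tested. The list was chosen with earlier results of these data known. None of the 10 markers was at 0 in any library. Their summed level was 393 to 478 CPM in WT and 721 to 835 CPM in GFAP-IL6. The leading markers were Itgam, a chain of complement receptor 3 (log2 fold change of 2.03, adjusted p of 3.01e-07 by edgeR), Csf1r, the receptor that sustains microglia (0.87, adjusted p of 0.000149), and Trem2, a lipid receptor (1.13, adjusted p of 0.000289). P2ry12, another marker, was not called, with a log2 fold change of -0.27 and an adjusted p of 0.291. In bulk tissue, more cells of a type and more RNA per cell cannot be told apart.

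**Figure D2:**
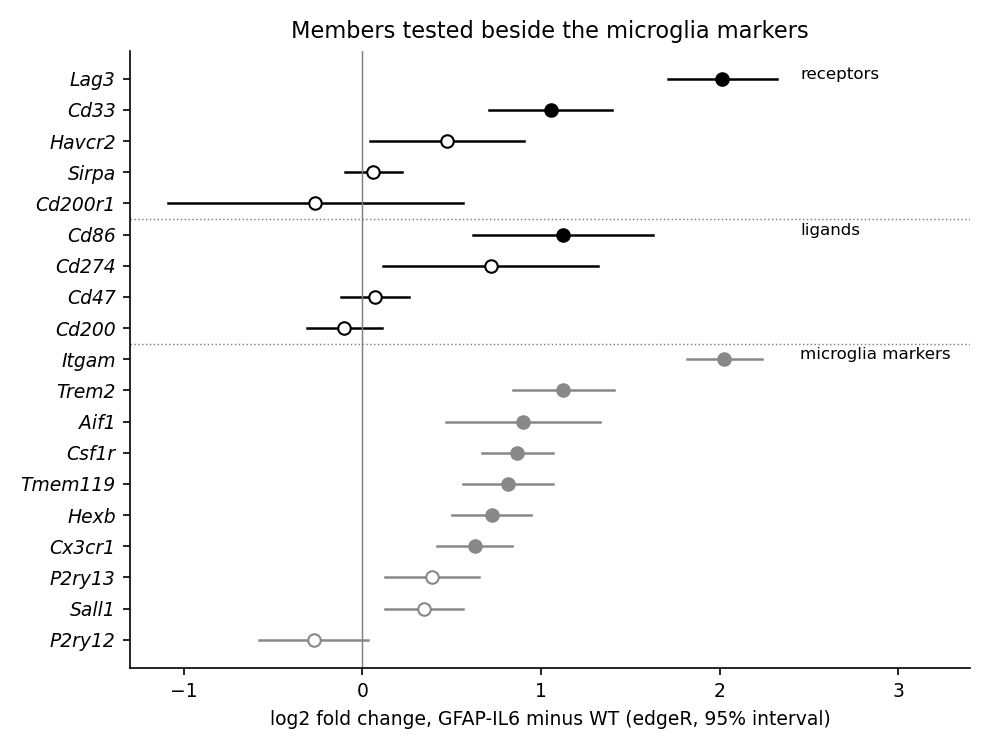
Log2 fold change of GFAP-IL6 against WT by edgeR with 95% intervals, for the 9 members tested (black) and 10 microglia markers (grey). Filled points were called at an adjusted p under 0.05. Lag3 (2.02) is the highest of the members and Itgam (2.03) the highest of the markers. Sirpa, Cd47 and Cd200 lie near 0, with intervals that include 0.

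The mean log2 CPM of the 10 microglia markers was higher by 0.76 in GFAP-IL6 than in WT, with no overlap between groups. Relative to this mean, Lag3 was -2.05, -2.30 and -2.03 in the WT libraries and -0.64, -0.99 and -1.01 in the GFAP-IL6 libraries. The difference was 1.24 log2 units, and the groups stayed apart. Cd33 and Cd86 differed by 0.31 and 0.36 with overlapping libraries, and Cd274 by -0.05. These 3 values depended on single libraries, being 0.09 for Cd33 and -0.34 for Cd274 without WT replicate 2, 0.24 for Cd274 without WT replicate 1 and 0.16 without GFAP-IL6 replicate 3, and 0.15 and 0.22 for Cd86 without WT replicate 3 or GFAP-IL6 replicate 1. Havcr2 was lower by 0.29 relative to the markers without overlap, although its CPM was higher in each GFAP-IL6 library, and this difference was -0.087 with the median over the markers in place of the mean. Sirpa, Cd200 and Cd47 were lower by 0.70, 0.86 and 0.69 on this scale, from which the level of the markers is subtracted. Cd200r1 was lower by 1.11 without overlap and Cd80 by 0.82 with overlapping libraries, both from few reads. The part of microglia in these differences was not tested.

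**Figure D3:**
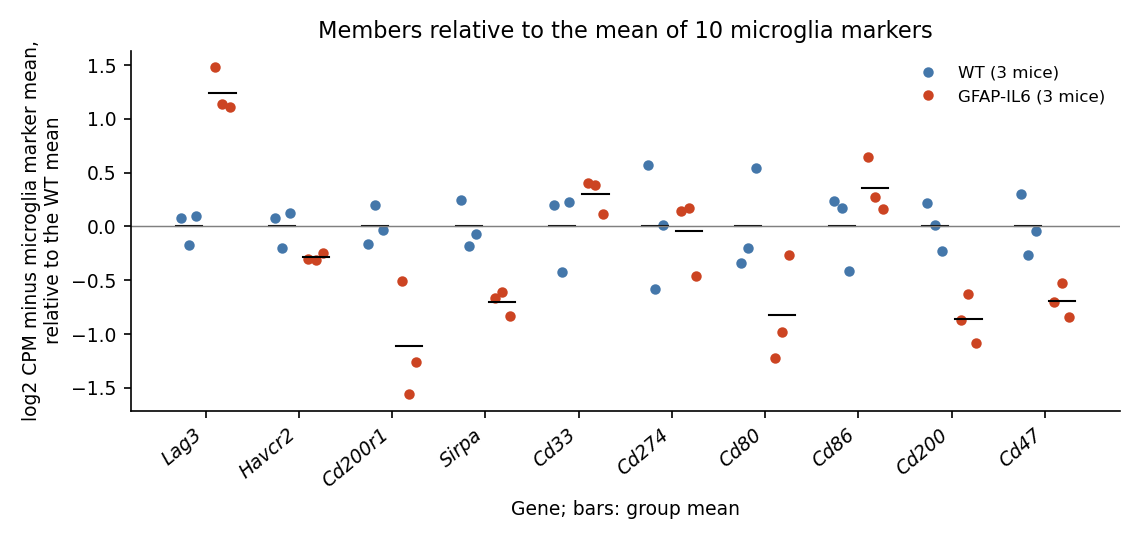
Log2 CPM of each member minus the mean log2 CPM of 10 microglia markers, shown relative to the WT mean of the gene (blue, 3 WT mice; red, 3 GFAP-IL6 mice; bars, group means). The GFAP-IL6 points of Lag3 lie above all of its WT points (difference of 1.24), whereas those of Cd33 and Cd86 lie above the WT mean but overlap the WT points, and Cd274 overlaps as well.

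Markers of other cells in which these receptors are known were examined in the same way. Of 12 T and NK cell markers, 10 had at most 3 counts in every library. Cd3d was without a read throughout, and Cd3e was without one in WT, with 3, 1 and 2 reads for GFAP-IL6 (both chosen after their values were seen). The summed level of the list was 9.78 to 11.3 CPM in WT and 13.2 to 15.3 CPM in GFAP-IL6, most of it from Cd247, the zeta chain of the T cell receptor. The 2 tested markers were Cd247 and the kinase Lck. Cd247 was higher in every GFAP-IL6 library, as were 13.8% of all genes tested. It was not called (log2 fold change of 0.30, edgeR adjusted p of 0.223, unadjusted p of 0.0404). Lck was not called either (log2 fold change of 0.66). As Lck passed the filter only through the GFAP-IL6 libraries, its groups had to differ, and it is given as a description.  None of the 4 B cell and 4 neutrophil markers passed the filter on low counts. Of 7 dendritic cell and monocyte markers 2 were tested, of 5 border macrophage markers 4 and of 4 blood markers 4, and edgeR called 0 of each, with 0 at an unadjusted p under 0.05. DESeq2 also called 0 of them. The dendritic cell and monocyte markers summed to 24.6 to 28.2 CPM in WT and 28.4 to 31.1 CPM in GFAP-IL6, most of it reads of Zbtb46 and Flt3. Ccr2, a monocyte receptor that did not pass the filter, gave 2, 11 and 8 reads for WT against 14, 5 and 13 for GFAP-IL6 (named after its values were seen). Its groups overlapped in reads. After scaling they were separate only by a very narrow margin, with 0.660 CPM in GFAP-IL6 replicate 2 against 0.656 CPM in WT replicate 2. Of all genes tested, 13.8% were higher in every GFAP-IL6 library. The part of these cells in the members' differences was not tested. The summed level of the border macrophage markers was 7.28 to 12.8 CPM in WT and 9.05 to 14.7 CPM in GFAP-IL6.

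To find genes with a pattern like that of Lag3, centred profiles of log2(CPM + 0.5) over the 6 libraries were compared for all genes tested. The 5 nearest were Ifi30, a thiol reductase of antigen processing, Fyb, an adaptor of haematopoietic cells, the integrin chains Itgam and Itgax, and Naip2, an inflammasome receptor. Their root mean square difference from Lag3 was 0.105, 0.121, 0.137, 0.149 and 0.160 log2 units over the 6 libraries. All 5 are known from myeloid cells. Ifi30 was at 2.06 ± 0.290 CPM in WT and 9.10 ± 1.75 CPM in GFAP-IL6, and Itgax at 0.212 ± 0.111 and 1.88 ± 0.284 CPM (SD, n = 3 each). Itgax gave 1, 5 and 4 reads for WT against 24, 12 and 17 for GFAP-IL6. It passed the filter on low counts only through the GFAP-IL6 libraries and is a description. Its fitted log2 fold change was 3.02, and its nearness to Lag3 rests on the pseudocount of 0.5, which is above its WT level. With 6 libraries in 2 groups, these profiles are shaped mainly by the difference between the groups.

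**Figure D4:**
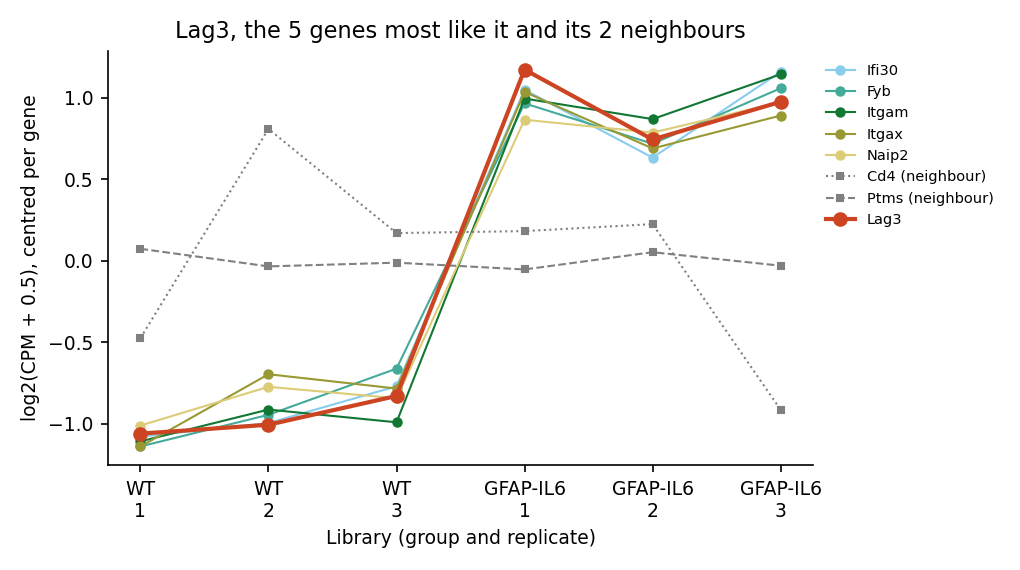
Centred log2(CPM + 0.5) of Lag3 (thick red), of the 5 genes nearest to it and of its neighbours on the chromosome, Cd4 and Ptms (grey), across 6 libraries. Lag3 and the 5 genes are low in all WT and high in all GFAP-IL6 libraries, whereas Ptms stays within a narrow band around 0. Itgax passed the low-count filter only through GFAP-IL6.

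Other genes of the checkpoint pathway were then examined from lists that did not include the members. The lists were chosen with earlier results of these data known, so nothing is read from their counts of called genes. Among 14 binding partners of the members, 7 were tested and 3 were called, all higher, against 2.65% of all genes tested. These were Lgals9, which encodes the Tim-3 ligand galectin-9, and the MHC class II genes H2-Ab1 and H2-Eb1, ligands of LAG3. Lgals9 rose from 4.10 ± 0.431 to 10.5 ± 2.04 CPM (SD, n = 3 each), with a log2 fold change of 1.34 ± 0.18 (SE) and an adjusted p of 0.00103 by edgeR. H2-Ab1 rose from 1.19 ± 0.273 to 3.85 ± 1.54 CPM (adjusted p of 0.0108) and H2-Eb1 from 1.32 ± 0.544 to 3.58 ± 0.248 CPM (adjusted p of 0.0221, SD, n = 3 each). MHC class II genes are a family of similar genes, whose counts are uncertain where reads align to several of them. The median log2 fold change of the 7 was 1.18. Without GFAP-IL6 replicate 3, 1 partner was called in place of 3.

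Of the other tested partners, H2-Aa, the third MHC class II gene, was at 1.74 ± 0.939 CPM in WT against 3.94 ± 1.38 CPM in the transgenic mice (SD, n = 3 each) and was not called (log2 fold change of 1.18, edgeR adjusted p of 0.123). Hmgb1, a nuclear protein that also binds Tim-3, was lower in every GFAP-IL6 library, at 75.5 ± 6.14 CPM against 65.1 ± 3.30 CPM (SD, n = 3 each), and was likewise not called (log2 fold change of -0.21, edgeR adjusted p of 0.194). Ceacam1 and Thbs1 had log2 fold changes of 1.02 and -0.07 (edgeR adjusted p of 0.0534 and 0.930). The 7 partners that were not tested had at most 11 reads in any library. Among these, Fgl1, Clec4g, Pdcd1lg2 and Ctla4 had at most 3 counts in every library. Pdcd1, the gene of PD-1, gave 1, 2 and 2 reads for WT against 9, 5 and 6 for GFAP-IL6 (named after its values were seen). It was higher in every GFAP-IL6 library, with a ratio of scaled counts of 6.38 and a 95% interval of 2.32 to 21.8 that covers counting error only, but it did not pass the filter and was not tested.

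Of 22 other checkpoint genes, 14 were tested and 3 were called, all higher, against 2.65% of all genes tested. The median log2 fold change of 0.39 over the 14 includes Cd244 and Cd48, which raise it. Of the 3, Cd244 and Cd48 passed the filter on low counts only through the GFAP-IL6 libraries, so that they had to differ, and are given as descriptions. Cd244, a receptor of the SLAM family, gave 0, 0 and 2 reads for WT against 37, 12 and 24 for GFAP-IL6. The ratio of its scaled counts was 58.2, with a 95% counting interval of 15.6 to 490. Its ligand Cd48 was at 0.642 ± 0.127 CPM in WT against 2.25 ± 0.544 CPM in the transgenic mice (SD, n = 3 each). The libraries of both genes were separate between groups. The gene of VISTA, listed as 4632428N05Rik, is known from microglia and rose from 30.8 ± 4.36 to 46.2 ± 4.09 CPM (SD, n = 3 each; log2 fold change of 0.58, adjusted p of 0.0135 by edgeR). Without GFAP-IL6 replicate 3, 1 gene of this list was called.

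Inhibitory receptors of myeloid cells outside the member list held 5 called genes of 9 tested and 14 listed, all higher. Among all genes tested, 2.65% were called higher. The median log2 fold change of 0.80 over the 9 includes Cd300lf, Cd22 and Pirb, which raise it. Of the 5, Cd300lf, Cd22 and Pirb passed the filter only through the GFAP-IL6 libraries and are likewise descriptions, which leaves 2 called genes. Cd300lf, a lipid receptor, gave 0, 1 and 1 reads for WT against 19, 12 and 19 for GFAP-IL6, a ratio of scaled counts of 39.9 with a 95% counting interval of 10.5 to 338. Cd22, a sialic acid receptor like Cd33, gave 0, 1 and 4 reads for WT against 14, 18 and 19 for GFAP-IL6, a ratio of 16.3 with an interval of 6.54 to 52.3. Pirb, a receptor for MHC class I, gave 4, 8 and 0 reads for WT against 29, 16 and 26 for GFAP-IL6, a ratio of 9.44 with an interval of 5.08 to 19.1. All 3 had few counts in WT, and Pirb and Cd300lf have near-identical relatives, which makes their counts uncertain. The 2 others were Lair1, a collagen receptor, and Siglece, a relative of Cd33, with log2 fold changes of 0.80 and 1.51 (adjusted p of 0.00463 and 0.0261 by edgeR).

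**Figure D5:**
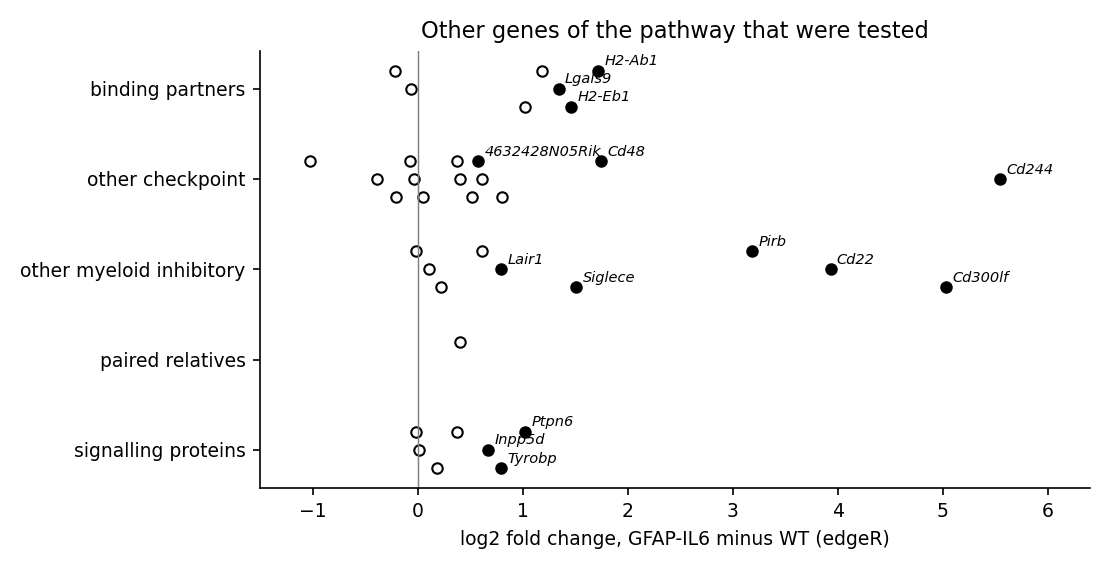
Log2 fold change of GFAP-IL6 against WT by edgeR for the tested genes of 5 lists that exclude the members (vertical scatter within a list has no meaning). Filled points were called at an adjusted p under 0.05 and are named. All called genes lie to the right of 0 (5 of them, Cd244, Cd48, Cd300lf, Cd22 and Pirb, passed the low-count filter only through GFAP-IL6), from Vsir, listed as 4632428N05Rik (0.58), to Cd244 (5.55).

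Signalling proteins that act below these receptors included 3 called genes of 7 tested, all higher, against 2.65% of all genes tested. The median log2 fold change of the 7 was 0.37. Ptpn6 (SHP-1) and Inpp5d (SHIP1), phosphatases recruited by inhibitory receptors in blood cells, had log2 fold changes of 1.02 ± 0.18 and 0.67 ± 0.14 (SE), with adjusted p of 0.00683 and 0.0195 by edgeR. Tyrobp (DAP12), the adaptor of activating myeloid receptors, had a value of 0.79 ± 0.14 (SE) with an adjusted p of 0.00813. Ptpn11 (SHP-2), the broadly expressed relative of Ptpn6, was at 210 ± 9.45 CPM in WT and 207 ± 7.37 CPM in GFAP-IL6 (SD, n = 3 each; adjusted p of 0.908). Without GFAP-IL6 replicate 3, 0 genes of this list were called by edgeR.

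Close relatives of the members were mostly undetected, as 7 of 9 had at most 3 counts in every library. Only Siglech, a microglial relative of Cd33, was tested. It was not called by edgeR, DESeq2 or limma-voom, with 17.7 ± 1.55 CPM in WT and 23.3 ± 3.05 CPM in GFAP-IL6 (SD, n = 3 each; log2 fold change of 0.40, unadjusted p of 0.00573, edgeR adjusted p of 0.103). Leaving out WT replicate 2 gave 1 called gene in this list.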

How the data were processed

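TruSeq mRNA libraries from the frontal cortex of 3 WT and 3 GFAP-IL6 mice were analysed, with groups and replicate numbers taken from the sample titles. The authors deposited raw counts per gene, with gene lengths. The study's methods describe alignment to mm10 by STAR 2.4, with uniquely mapped reads counted over GENCODE genes by featureCounts, and state no strand setting. The submitters' processing notes list the human build hg19, although the table holds mouse genes. Of 33000 identifiers, 32593 matched GENCODE M21 (GRCm38, the assembly of mm10) without version, which gave positions.

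The members and gene lists were chosen with earlier results of these data known. Differential expression was tested with edgeR 4.0.16 (R 4.3.3) on counts, with TMM scaling, filterByExpr, the group as the only factor and Benjamini-Hochberg adjustment over 15341 genes. The authors used DESeq2, and DESeq2 1.42.0 and limma-voom (limma 3.58.1) were run as alternatives, beside other scalings and filters and the omission of each library. SE was derived from the F statistic. CPM and TPM were computed from the counts, and intervals of count ratios are exact (Clopper-Pearson, 95%) and cover counting error only. A floor of 3 counts corresponded to 0.179 to 0.396 CPM. The fits were checked on simulated counts. Named genes were the members, up to 3 called genes per list with the smallest adjusted p or else the most abundant gene, the 5 genes most like Lag3 and its neighbours. Cd3d, Cd3e, Pdcd1, P2ry12, Ptpn11, H2-Aa, Hmgb1, Ceacam1, Thbs1, Lck, Ccr2, Zbtb46, Flt3, Lair1, Siglece, the scarce partners and Adora2a were named after their values were seen. The replicate numbers were not taken as pairs.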

Additional observations from a re-analysis of the deposited data

How the results depend on the processing

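Among the values recomputed under alternatives, 295 were classed as the same, 12 moved, 3 lost a call and 0 called values reversed. A fold change was classed as the same if it kept its direction and its side of the threshold. An untested difference was so classed if it stayed within the replicate spread. Counts of called genes were so classed also after a small change, such as 2 members called in place of 3. Untested differences near 0 changed sign when single libraries were left out (Sirpa over Cd47, Cd200r1 over Cd200 and Cd274 beside the microglia markers). The fold changes of Lag3 and Cd33 kept their side of the threshold under DESeq2, limma-voom, both other scalings, both other filters and the omission of each library, with 1.90 to 2.11 for Lag3 and 0.91 to 1.21 for Cd33 across the omissions. For Cd86 the range was 0.95 to 1.31, and the call was lost without WT replicate 3 (0.95), GFAP-IL6 replicate 1 (0.97) or GFAP-IL6 replicate 3 (1.16). The number of members called was 2 to 3, as was the number with a log2 fold change over 1. As the members were chosen on this contrast, these values describe the dependence on processing and do not test the members. Leaving out a library gave 1 to 4 called binding partners, 1 to 3 other checkpoint genes, 4 to 5 myeloid inhibitory receptors, 0 to 1 relatives and 0 to 3 signalling proteins. Without the low-count filter, 6 binding partners and 1 relative were called. The median over the microglia markers in place of the mean gave -0.087 log2 units for Havcr2 in place of -0.29. Of the 5 genes most like Lag3, 3 remained with a pseudocount of 2, and 3 to 4 when a library was left out. By CPM, not divided by length, 4 of the 10 members kept their rank in WT. In these cases, beyond the smaller number of samples or the wider set of genes, the cause was not tested.

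For libraries of the same replicate number, deviations from the group means had correlations of 0.0996, 0.0148 and 0.0211 across genes. Those of different numbers ran from -0.0770 to 0.0523. With 3 libraries per group, these values cannot show whether the numbers pair the mice. With the replicate block, the log2 fold changes were 1.06 for Cd33 and 1.11 for Cd86, 3 members were called, and 4 other checkpoint genes in place of 3. Not every library correlated best with its own number. Depth limits Cd80 and Cd200r1 most, as neither had more than 21 counts in any library. No batch or date is given in the sources used here.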

Other observations

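Adora2a, the adenosine receptor of the checkpoint list, gave 16, 236 and 40 reads for WT against 33, 29 and 22 for GFAP-IL6. It is best known from the striatum, and WT replicate 2 alone held more counts of it than the other libraries together.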
